A study of Mus musculus with 22 samples.

Results

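DNA methylation was described at 10 genes of the Eph receptor family, Epha2, Epha3, Epha4, Epha5, Epha6, Epha7, Epha8, Epha10, Ephb1 and Ephb2, in mouse forebrain. For each gene, CpGs were collected from 5 kb upstream to 1 kb past its RefSeq limits on GRCm38. Of 592579 CpGs with at least 10 reads in at least 5 samples per condition, 700 lay at these genes, and 141 of 114430 analysed 100 bp tiles did. The samples were whole forebrains of wild-type C57BL/6 embryos collected at E10.5, 1 embryo per library. The 6 control (Ctrl) embryos came from 3 litters whose mothers received 2 injections of saline at E2.5. The 16 EtOH-exposed embryos came from 6 litters whose mothers received 2 doses of ethanol at 2.5 g/kg, 2 h apart, on the same day. Forebrains without visible malformation had been chosen, so the values describe embryos of normal appearance.

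Eph receptors are receptor tyrosine kinases that bind ephrins on the surface of neighbouring cells. EphA receptors mainly bind ephrin-A ligands, which are anchored in the membrane by a lipid, and EphB receptors mainly bind ephrin-B ligands, which span it. Contact signals in both directions, so that cells and axons are repelled or attached, and in the developing forebrain this system is known for sorting cells at boundaries and guiding axons. Methylation of cytosine at CpGs is usually low at CpG-rich promoters and high in gene bodies.

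In rRRBS, DNA is cut at CCGG by MspI and sequenced after bisulfite conversion, so only CpGs near such sites are read. A methylation level is the share of CpG calls in a tile that were methylated, over all cells and both alleles of a forebrain. A lower level may be fewer methylated cells or less methylation in each, which cannot be told apart here. The tissue label could not be checked by marker genes, since no expression is measured. The samples held 68126469 to 216223892 CpG calls, and the member tiles had a median of 456.5 calls per sample. EtOH-exposed samples 4, 5 and 6 had the highest levels at unmethylated tiles. At the 39343 tiles with a median level under 1% over all 22 samples, called unmethylated here, they had levels of 2.41 to 2.54%. Ctrl samples had 0.672 to 1.52% there, with samples 1 and 2 highest. The other EtOH-exposed samples fell into separate ranges. Samples 1, 2, 3, 9, 12 and 14 had 0.260 to 0.313%, below every Ctrl sample. Samples 7, 8, 10, 11, 13, 15 and 16 had 0.834 to 1.38%, within the Ctrl range. They are the selected samples of the later alternatives. Coverage of methylated relative to unmethylated tiles was low in EtOH-exposed samples 4, 5 and 6. It was -2.96 to -2.52 on the log2 scale, against -0.545 to 0.456 in Ctrl samples. By this measure EtOH-exposed samples 14 and 2 came next, at -2.0 and -1.11. Samples 8, 9 and 11 were also below the Ctrl range, at -0.955, -0.887 and -0.555. Samples 8 and 11 are among the selected samples, so that set is not within the Ctrl range by this measure.

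A tile was called a differentially methylated region (DMR) when the q of a logistic test was under 0.01 and the coverage-weighted levels differed by at least 10 percentage points. The sequences of the 2 called Eph receptor tiles are shown because the later results turn on them, with the C and G of every whole CpG in capitals. The Epha7 tile lies at chr4:28935701-28935800 and the Epha2 tile at chr4:141325801-141325900 (GRCm38, + strand, the strand of both genes).

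Epha7 called tile: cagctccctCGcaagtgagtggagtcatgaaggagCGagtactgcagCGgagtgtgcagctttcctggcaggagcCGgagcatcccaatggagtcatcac
Epha2 called tile: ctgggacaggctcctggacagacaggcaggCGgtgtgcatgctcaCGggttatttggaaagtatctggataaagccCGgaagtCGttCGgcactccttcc

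The Epha7 tile falls on coding exon 6 (chr4:28935704-28935828, 125 bp), 122605 bp from the start of the gene. The Epha2 tile lies in intron 16 of a gene with 17 exons (chr4:141324388-141328412, 4025 bp), 24629 bp from the start. The sequences upstream of 3 genes, which hold more CpGs per base than these tiles, are shown for contrast, each in the direction of transcription and ending at the first annotated start. The Epha7 stretch lies at chr4:28812881-28813065 (+ strand), the Epha4 stretch at chr1:77515108-77515338 (- strand) and the Epha8 stretch at chr4:136956860-136957066 (- strand).

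Epha7 upstream: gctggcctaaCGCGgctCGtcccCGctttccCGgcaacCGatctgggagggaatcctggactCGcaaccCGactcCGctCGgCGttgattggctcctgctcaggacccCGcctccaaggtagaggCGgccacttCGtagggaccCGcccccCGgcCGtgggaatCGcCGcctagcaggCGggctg
Epha4 upstream: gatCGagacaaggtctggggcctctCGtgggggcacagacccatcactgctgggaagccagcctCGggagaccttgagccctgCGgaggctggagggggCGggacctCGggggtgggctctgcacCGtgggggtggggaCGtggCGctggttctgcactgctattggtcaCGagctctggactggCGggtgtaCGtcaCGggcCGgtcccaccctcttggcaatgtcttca
Epha8 upstream: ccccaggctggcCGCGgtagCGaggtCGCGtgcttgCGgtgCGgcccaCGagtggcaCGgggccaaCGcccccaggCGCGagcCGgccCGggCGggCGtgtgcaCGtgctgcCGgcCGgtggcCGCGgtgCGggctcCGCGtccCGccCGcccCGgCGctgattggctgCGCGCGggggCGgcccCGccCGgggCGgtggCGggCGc

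These stretches held 20 CpGs in 185 bases for Epha7, 14 in 231 bases for Epha4 and 37 in 207 bases for Epha8. In the RefSeq promoter windows of 300 bp, all 10 genes matched, with 11 windows. The number of CpGs ran from 10 in Epha2 to 56 in Epha8, against a median of 7 over 32817 mouse promoters. Of these promoters, 43.4% held at least 10 CpGs. A GC box (GGGCGG or its complement CCGCCC, both strands) occurred in 8 of the 11 windows and in 35.6% of all promoters. Both Epha7 windows, which overlap, are among the 8.

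In control forebrain, the starts of the Eph receptor genes were unmethylated, and tiles in their bodies ran from unmethylated to almost fully methylated. The 16 promoter tiles (1000 bp upstream to 100 bp downstream of a start) had levels of 0.570 to 1.72%, with no tile above that in any of the 7 genes with a promoter tile. Epha2, Epha3 and Ephb1 had none, although exon 1 was measured in each. Over the 10 genes, 67 tiles lay within 2 kb of a start, and 65 of these were below 10%. Both exceptions were neighbouring tiles in intron 1 of Ephb2, at 86.9% and 75.8%. The 11 tiles on exon 1, from 8 genes, had 0.983 to 2.83%.

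Later exons differed from exon 1. Of 14 tiles on later exons, 12 were above 80%, and their median was 95.3%. The called Epha7 tile at 66.6% was the only member tile centred on an exon between 20 and 80%. Exon 5 of Epha10, which encodes a receptor without kinase activity, was the other exception with 1.34%. An Epha4 tile at 62.5%, counted as intron 13 by its centre, also overlapped coding sequence. The 98 intron tiles were split between 50 below 10%, 4 at 10 to 20%, 21 at 20 to 80% and 23 above 80%.

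The genes were read at different distances from their starts, so their levels are not matched by position. Epha6, a gene of 969 kb, had 7 intron tiles at 92.1 to 96.2%, which lay 168881 to 924181 bp from the start, while its 3 tiles within 2 kb had 1.19 to 1.5%. In Epha7, the 10 tiles besides the called one, 3 on the promoter and 7 in intron 1, lay within 2605 bp of the start and had 0.645 to 1.43%. All 6 tiles of Epha5, a receptor involved in topographic maps of axons, lay within 1932 bp of the start and were below 10%. Ephb2, which guides commissural axons and takes part in synapse formation, gave 40 tiles, of which 16 were below 10%, 12 at 20 to 80% and 10 above 80%. Intron 1 of Ephb2 (61125 bp) held 8 of these 12 intermediate tiles and intron 3 held the other 4.

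**Figure D1:**
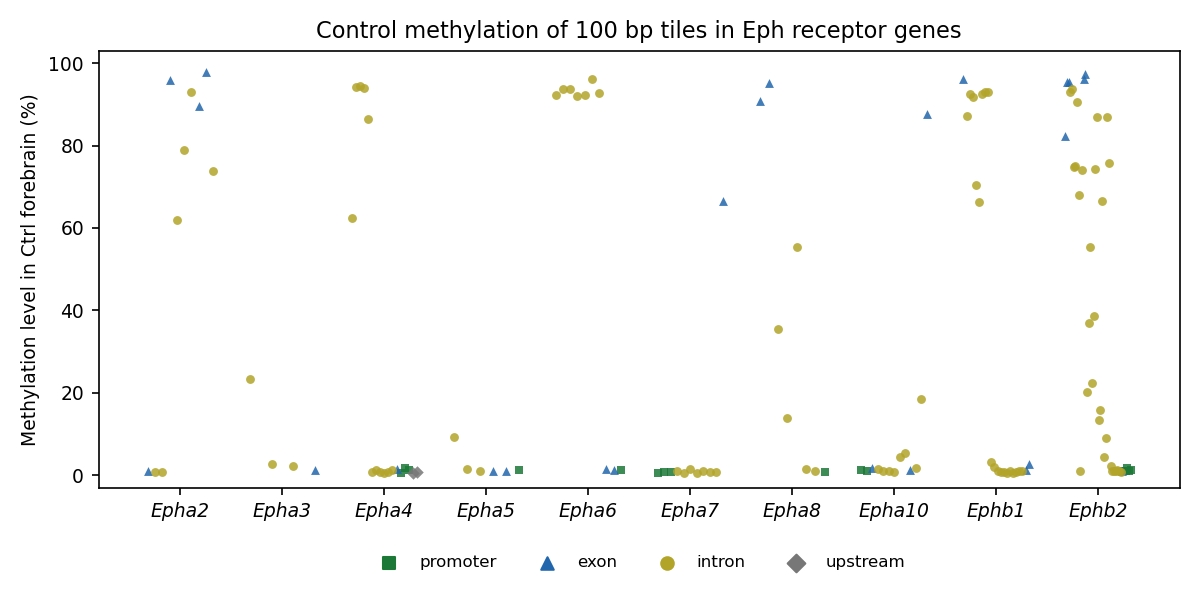
Coverage-weighted methylation level (%) of each of the 141 tiles in the 6 Ctrl samples, by gene on the x axis and in genomic order within a gene, with the marker giving the feature. The promoter tiles lie at 0.570 to 1.72%, while 35 tiles of introns and exons lie above 80%.

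Over all members, 80 tiles were below 10%, 4 at 10 to 20%, 22 at 20 to 80% and 35 above 80%. As shares these were 56.7%, 2.84%, 15.6% and 24.8%, against 52.9%, 1.49%, 8.79% and 36.8% of all analysed tiles. Tiles below 10% had a median of 8 CpGs in the reference and lay at a median of 663.5 bp from a start. Those at 20 to 80% had 3.5 CpGs and lay 40312 bp away, and those above 80% had 4 CpGs and lay 102738 bp away. Only 8 of the 141 tiles were repeat-masked over more than 50% of their length, 7 of them in the group above 80%.

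After EtOH exposure, 2 of the 141 Eph receptor tiles were called as DMRs, the Epha7 and Epha2 tiles, both lower. This share of 1.42% was close to the background, since 1.14% of all tiles were called, 1.08% as lower and 0.0516% as higher. Both lay at 20 to 80% in controls, where 2 of 22 member tiles and 10.9% of all tiles were called. With no limit on the size of the difference, 12 member tiles were lower at q under 0.01 and 15 were higher, against 12.9% and 8.84% of all tiles. When the spread between embryos was estimated by limma, no member tile passed, 3 had an unadjusted p under 0.05, and no tile of the whole table passed. An overdispersion F test also gave 0 DMRs, with 10 member tiles at an unadjusted p under 0.05. These compare with 4.45% (limma) and 5.77% (F test) of all tiles at that p. In no member tile did the samples of both conditions fail to overlap, and over all tiles this occurred in 0.0201% with lower and 0.00262% with higher EtOH-exposed samples.

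**Figure D2:**
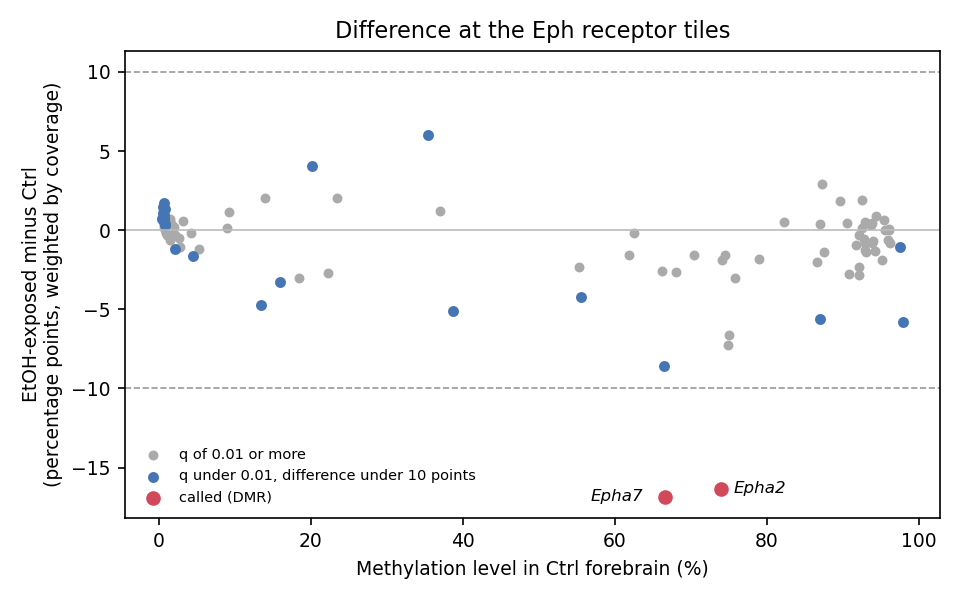
Coverage-weighted difference between EtOH-exposed and Ctrl samples (percentage points) against the Ctrl level (%) for the 141 tiles, with dashed lines at 10 points. The called tiles of Epha7 and Epha2 lie at -16.8 and -16.3 points, and the next largest difference is -8.60 points in Ephb2.

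Epha7 encodes a receptor with roles in cortical axon maps and neural tube closure. Its exon 6 tile was covered in 5 Ctrl and 11 EtOH-exposed samples. The Ctrl levels were 77.8% in sample 1, 63.3% in sample 3, 70.8% in sample 4, 73.5% in sample 5 and 53.4% in sample 6. Among EtOH-exposed embryos the low levels were 29.6% in sample 4, 36.1% in sample 6 and 40.7% in sample 16. Sample 5 had 53.5%, which is just above the lowest Ctrl sample. Levels of 65.0%, 66.4%, 73.3% and 74.6% were found in samples 11, 7, 12 and 10. Samples 1, 15 and 13 had 85.4%, 85.9% and 86.7%. Thus 3 embryos lay below the lowest Ctrl value, 3 lay above the highest and the groups overlapped.

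The size of the Epha7 difference depended on how embryos were weighted. Weighted by coverage, the level was 66.6% in Ctrl and 49.8% in EtOH-exposed samples, a difference of -16.8 points (logistic test, Benjamini-Hochberg adjusted q = 5.85e-21). With each embryo counted equally, the mean was 67.7% ± 9.59 (SD, n = 5) for Ctrl and 63.4% ± 20.7 (SD, n = 11) for EtOH-exposed embryos, a difference of -4.36 points (exact two-sided permutation test over 4368 splits, p = 0.667). The 3 deepest EtOH-exposed samples were 4, 6 and 5 with 646, 499 and 443 calls, which made up 56.1% of the calls of that group. The samples with 85.4 to 86.7% had only 30 to 71 calls. For 30 calls at 86.7%, the 95% Wilson interval was 70.3 to 94.7%, so the position of this embryo above the Ctrl samples rests on few calls. Without sample 4 alone the weighted difference was -10.8 points. Without samples 4, 5 and 6 it was -2.09 points, and the mean of the other 8 EtOH-exposed embryos was 72.3% ± 15.4 (SD).

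**Figure D3:**
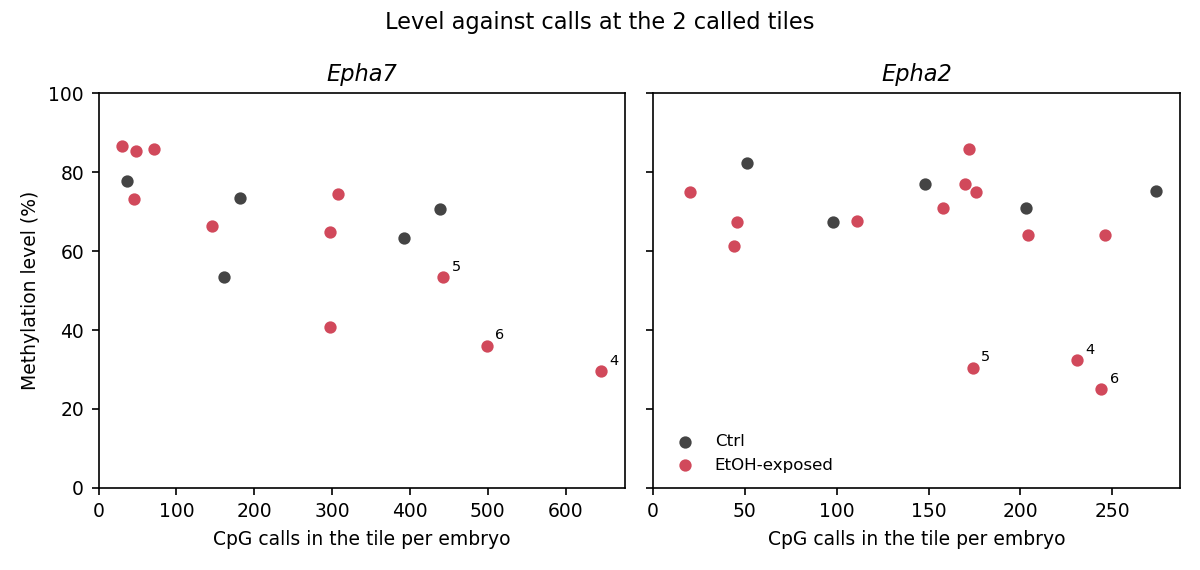
Methylation level (%) against the number of CpG calls for each embryo at the called tiles of Epha7 and Epha2, Ctrl in grey and EtOH-exposed in red, with EtOH-exposed samples 4, 5 and 6 numbered. At Epha7 these 3 samples have the most calls of the EtOH-exposed group, 443 to 646.

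The 4 CpGs measured in the Epha7 tile were all lower by weighted level. They lie at positions 10, 36, 48 and 76 of the printed sequence, counted from 1 at its 5′ end. On the forward strand, the weighted levels went from 59.7% to 46.5% at position 10, from 63.2% to 48.0% at position 36 and from 73.6% to 55.4% at position 48. Position 76 belongs to the CCGG site and was read on the reverse strand only, where it went from 76.8% to 52.9%. With embryos counted equally, the differences were -3.78, -4.90 and -7.33 points at positions 10, 36 and 48 on the forward strand (5 Ctrl and 11 EtOH-exposed samples) and -14.7 at position 76 (4 and 7 samples). On the reverse strand (4 and 7 samples) they were -7.38, -9.98 and -10.6 points at positions 10, 36 and 48. A called tile is called from the calls of its own CpGs, so their shared direction is no separate support for the call.

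Epha2 encodes a receptor that binds ephrin-A1 and is known from epithelia and the lens. Its intron 16 tile was covered in 5 Ctrl and 13 EtOH-exposed samples. The Ctrl levels were 82.4%, 75.2%, 70.9%, 77% and 67.3% in samples 1, 3, 4, 5 and 6. EtOH-exposed samples 6, 5 and 4 had 25%, 30.5% and 32.5%. The other 10 EtOH-exposed samples ran from 61.4% in sample 14 to 86.0% in sample 1. No embryo lay between 32.5% and 61.4%, so samples 4, 5 and 6 were apart from every other embryo, and 3 of the others also lay below the lowest Ctrl sample. Counted equally, Ctrl embryos had a mean of 74.6% ± 5.75 (SD, n = 5) and EtOH-exposed embryos one of 61.3% ± 19.4 (SD, n = 13), a difference of -13.3 points (exact two-sided permutation test over 8568 splits, p = 0.167). By coverage the difference was -16.3 points (logistic test, Benjamini-Hochberg adjusted q = 5.70e-14). Without samples 4, 5 and 6 it was -2.63 points, and the mean of the other 10 EtOH-exposed embryos was 70.9% ± 7.49 (SD). By weight, the CpG of the CCGG site at position 77 went from 84.0% to 60.2%. That at position 46 went from 66.0% to 46.8% on the forward strand and from 70.9% to 59.5% on the reverse strand, and that at position 31 from 74.5% to 54.4% and from 73.3% to 63.3%. Counted equally, the differences at these CpGs were -22.99 points at position 77, -16.4 (forward) and -12.7 (reverse) at position 46, and -16.5 and -8.87 at position 31.

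Ephb2 held the tile just outside the limit of 10 points, in intron 1 at chr4:136822301-136822400. Its Ctrl levels ran from 64.3% to 74.5%, with a median of 67.5% over 5 samples. Its EtOH-exposed levels ran from 47.2% in sample 6 to 92.0% in sample 3, which had only 25 calls, with a median of 60.8% over 15 samples. In 9 of these 15 embryos the level was below the lowest Ctrl sample, and samples 4, 5 and 6 were among them at 55.5%, 48.8% and 47.2%. The weighted difference was -8.60 points (logistic test, adjusted q = 5.85e-07) and that of the means was -6.26 points (exact two-sided permutation test, p = 0.254). Without samples 4, 5 and 6 the weighted difference was -4.66 points with an adjusted q of 0.0168 by the logistic test. With at least 3 CpGs per tile and sample it was -10.97 points, past the limit of 10 points.

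The leading tile of Epha8 had a higher weighted level after exposure. This tile, in intron 3 at chr4:136942901-136943000, had Ctrl levels of 30.2% to 47.4% with a median of 37.5%, and EtOH-exposed levels of 29.8% to 49.4% with a median of 41.8%. The groups overlapped over nearly their whole range. The weighted difference was 6.01 points (logistic test, adjusted q = 2.03e-05) and that of the means 3.46 points (exact two-sided permutation test, p = 0.290). Without Ctrl sample 2, the lowest Ctrl sample and the deepest with 898 calls, the weighted difference was 2.09 points with an adjusted q of 0.329 by the logistic test. Samples 4, 5 and 6 had 49.4%, 48.4% and 41.5% here, so they were not low at every intermediate Eph receptor tile.

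**Figure D4:**
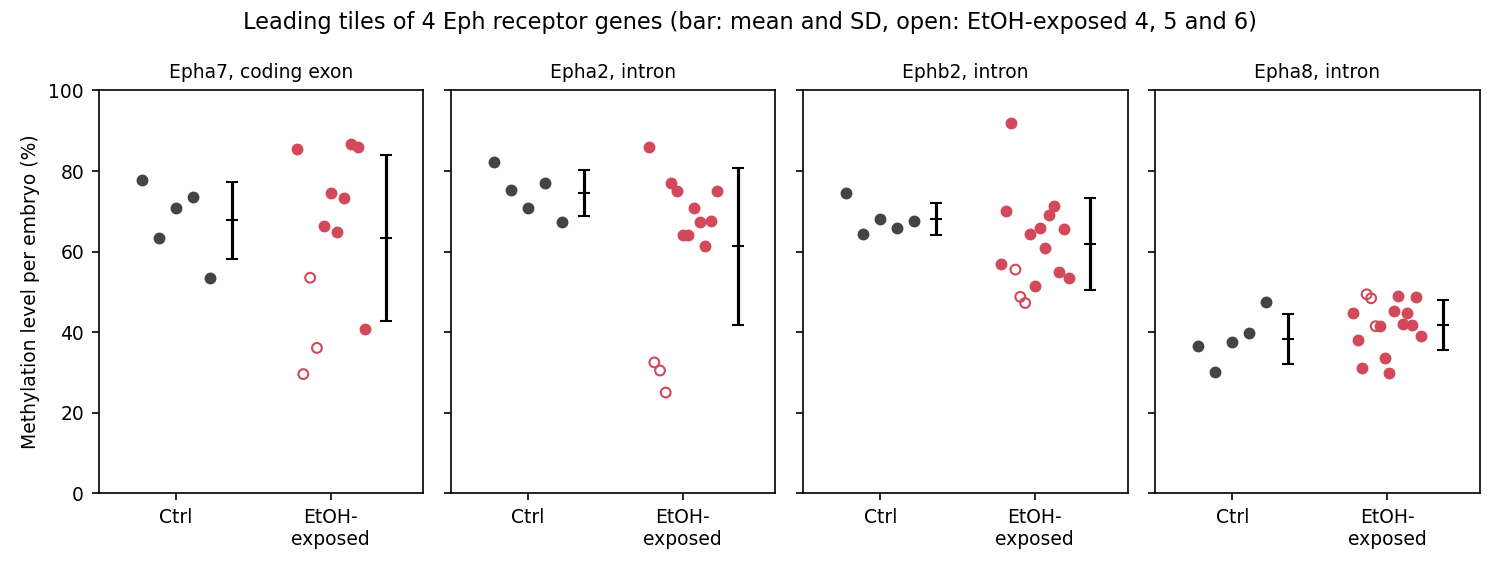
Methylation level per embryo (%) at the leading tiles of Epha7, Epha2, Ephb2 and Epha8, with Ctrl in grey, EtOH-exposed in red, open circles for EtOH-exposed samples 4, 5 and 6, and bars for the mean and SD. At Epha2 the 3 open circles lie at 25 to 32.5%, below all other embryos, and at Epha8 they lie at 41.5 to 49.4%, all above the Ctrl median of 37.5%.

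At the other 6 genes, where the leading tile was the one with the smallest p, differences were small. They were -1.22 points at Epha3, 1.09 at Epha4, 1.17 at Epha5, -0.61 at Epha6, 0.38 at Epha10 and 0.74 at Ephb1 by coverage. The Ctrl level of these tiles was 9.20% at Epha5 and 0.480 to 2.18% at the others. By the logistic test, q was under 0.01 at Epha3, Epha4, Epha10 and Ephb1, and leaving out 1 sample (Ctrl 2, 4 or 5 or EtOH-exposed 4) ended this at each of them but Epha4. It was 0.0148 at Epha6 and 0.344 at Epha5. The exact permutation p ran from 0.217 at Ephb1 to 0.938 at Epha6.

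In all, 4 of 141 member tiles had an exact permutation p under 0.05, each lower in EtOH-exposed samples, against 4.48% of all tiles, 3.78% as lower. This share of the members was below the background, and the 4 tiles are described with their values only, named after these were seen. In intron 1 of Ephb2, at chr4:136834101-136834200, Ctrl embryos had 85.9% ± 2.48 (SD, n = 6) and exposed embryos 79.4% ± 5.51 (SD, n = 16), with an exact permutation p of 0.0112. In 11 of 16 embryos the level was below the lowest Ctrl sample of 82.1%, but samples 4, 5 and 6 were split, with 87.1%, 71.0% and 72.7%. Without them the exposed mean at this tile was 79.9% ± 4.81 (SD, n = 13), with an exact permutation p of 0.00962. The neighbouring tile, at chr4:136834201-136834300, had means of 74.8% in Ctrl and 69.5% in EtOH-exposed embryos (exact permutation p = 0.248). In exon 10 of Epha8, at chr4:136933601-136933700, the levels were 91.7% ± 3.09 (SD, n = 6) against 82.4% ± 8.42 (SD, n = 11), with 7 of 11 embryos below every Ctrl sample and an exact permutation p of 0.0181. Of samples 4, 5 and 6 only sample 5 had a value here, 69.8%, and without it the p was 0.0225. Weighted by coverage, the difference at this tile was only -2.75 points (logistic test, adjusted q = 0.0256). The neighbouring tile on this exon, at chr4:136933701-136933800, had means of 95.1% in Ctrl and 94.7% in EtOH-exposed embryos (exact permutation p = 0.859). The other tile in intron 1 of Ephb2, at chr4:136820101-136820200, had 14% ± 1.76 (SD, n = 5) against 9.89% ± 4.0 (SD, n = 14), with an exact permutation p of 0.0446. Without samples 4, 5 and 6 the exposed mean was 10.6% ± 4.19 (SD, n = 11), with an exact permutation p of 0.112. The tile next to it, at chr4:136820201-136820300, had means of 14.5% in Ctrl and 13.4% in EtOH-exposed embryos (exact permutation p = 0.719). In exon 13 of Epha2, at chr4:141322201-141322300, the level was 97.8% ± 2.16 (SD, n = 5) in Ctrl against 90.9% ± 6.51 (SD, n = 9), with an exact permutation p of 0.0465. Without samples 4, 5 and 6 the exposed mean was nearly the same, at 90.8% ± 7.32 (SD, n = 7), with an exact permutation p of 0.0783. By limma, the 4 tiles did not pass adjustment over all tiles.

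At unmethylated tiles the small increases moved with a few libraries. Of 15 member tiles that were higher at q under 0.01, 13 were below 10% in controls, with 5 in Epha4, 4 in Epha7, 3 in Ephb1 and 1 in Epha10. These 13 of 80 tiles were close to the background of 15.4% of all tiles below 10%. These increases ran up to 1.73 points. Over the 80 member tiles below 10%, the mean level was 2.15% in the highest Ctrl sample, and 3.0 to 3.21% in EtOH-exposed samples 4, 5 and 6. Another 6 EtOH-exposed samples lay below the lowest Ctrl mean of 1.15%, the lowest at 0.579%. Without samples 4, 5 and 6, none of the 80 tiles was higher at q under 0.01, and 18 were lower in place of 2. Of all tiles below 10%, 0.298% were higher and 28.6% lower without these samples, and 8.34% were lower with them. In the promoter tile of Epha7 at chr4:28812901-28813000, for example, samples 4, 5 and 6 had 2.79%, 2.56% and 1.93%, while the Ctrl samples had 0.416 to 1.57%. The part of the level at unmethylated tiles in these differences was not tested.

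At intermediate tiles, the embryos with low levels over all tiles were also low at the Eph receptor genes. The deviation of an embryo was its level minus the Ctrl mean of the tile, averaged over the 22 member tiles at 20 to 80%. It ran from -4.0 to 2.16 points in Ctrl samples and from -17.2 to 5.78 in EtOH-exposed samples, with a median of -0.686. EtOH-exposed samples 4, 6, 5 and 14 were lowest with -17.2, -14.4, -14.1 and -12.4 points, followed by sample 2 with -8.75. The mean difference was -3.54 points over the members and -4.60 points over all 10064 such tiles. Over all tiles the same 4 samples had -12.4, -13.1, -13.4 and -10.5 points, and sample 2 had -8.47. In 8 of the 22 embryos the deviations of the members and of all tiles had opposite signs, such as 4.28 and -0.397 points in EtOH-exposed sample 1. Of the 22 member tiles, 18 had a lower weighted level, 10 of them in Ephb2, which held 12 of the 22. The median difference over the 22 tiles was -2.45 points, against -3.38 points over all such tiles. At q under 0.01, 5 of the 22 were lower and 2 higher, against 40.5% and 2.80% of all such tiles. Only 3 of the 22 were measured in every sample, and their mean level was 68.0% ± 2.63 (SD, n = 6) in Ctrl and 64.0% ± 7.99 (SD, n = 16) in EtOH-exposed embryos. This difference of -3.97 points was smaller than that over all 2602 intermediate tiles measured in every sample. There the mean level was 56.0% ± 0.717 (SD) in Ctrl and 51.3% ± 5.20 (SD) in EtOH-exposed embryos, a difference of -4.74 points.

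**Figure D5:**
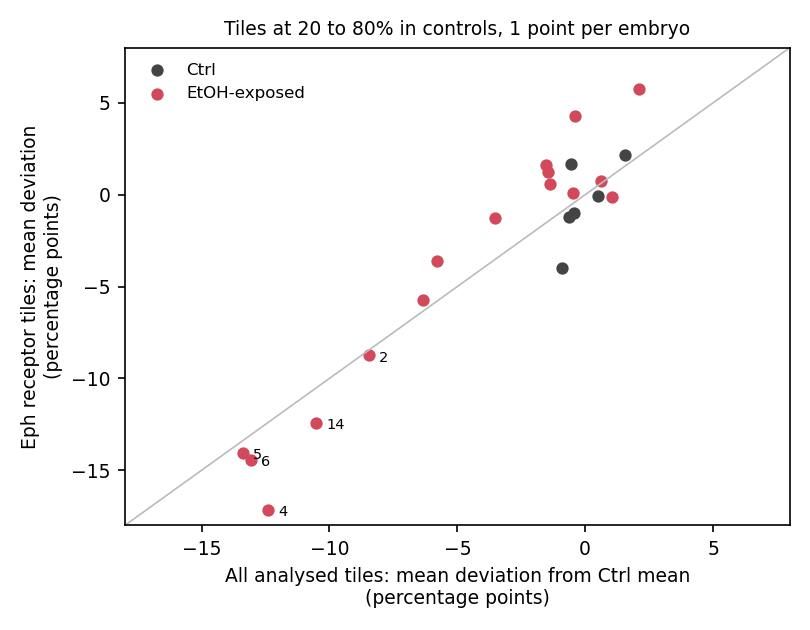
Mean deviation from the Ctrl mean (percentage points) over the Eph receptor tiles at 20 to 80% against that over all 10064 analysed tiles in this range, 1 point per embryo, Ctrl in grey and EtOH-exposed in red, with the line of equality. EtOH-exposed samples 4, 5, 6 and 14 are low on both axes, at -17.2 to -12.4 points for the Eph receptor tiles.

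The spread between embryos was larger in EtOH-exposed samples at most member tiles, as at most tiles of the table. The SD was larger in EtOH-exposed samples at 114 of 141 member tiles, against 77.5% of all tiles, and at 21 of 22 intermediate member tiles, against 76.3% of such tiles. Without samples 4, 5 and 6 it was larger at 78 of 141 and 16 of 22 member tiles, against 53.8% and 67.5% of all tiles. No test was made of these spreads. The Ctrl SDs come from 5 or 6 samples and most EtOH-exposed SDs from more. With equal spread, the SD of the smaller group is more often the lower one. The part of sample number in these counts was not tested. The median SD at the intermediate member tiles was 5.92 points in Ctrl and 10.8 in EtOH-exposed samples, and over all intermediate tiles it was 5.46 and 8.22. Without samples 4, 5 and 6 the EtOH-exposed values were 8.03 and 6.99. Highly methylated member tiles deviated less, by -1.09 points on average over 35 tiles, against -1.86 points over all tiles above 80%.

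With embryos counted equally, the mean difference at Epha7 was near that of the rest of the family, but it depended on single libraries. Its single intermediate tile deviated by -4.36 points in EtOH-exposed against Ctrl samples (11 and 5 embryos). The 21 intermediate tiles of the other genes deviated by -3.54 points (16 and 6 embryos). Of these 21, 12 lay in Ephb2, and Epha5, Epha6 and Epha10 had none. Leaving out 1 sample gave -7.94 (Ctrl 6) to -0.977 points (EtOH-exposed 4) at Epha7. Without EtOH-exposed samples 4, 5 and 6 the Epha7 difference was 4.52 points. The EtOH-exposed mean deviation of the rest was then -1.44 points, in place of -3.89 points. Within embryos, the difference between Epha7 and the rest changed by -0.947 points, with an SD of 9.09 over 5 Ctrl and 16.1 over 11 EtOH-exposed samples. In 3 of 11 EtOH-exposed embryos this difference was below the lowest Ctrl value of -14.3, and in 3 it was above the highest of 8.79. Leaving out 1 sample moved the change of -0.947 points to between -4.11 and 1.82, so the sign of this change was not settled. No test was made of it, since the genes were chosen with results known.

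Averaged over all tiles of a gene, no Eph receptor gene passed limma with adjustment over 15395 genes, and neither did any other gene (0 called, smallest adjusted p = 0.407). At an unadjusted p under 0.05 there were 0 members and 8.91% of all genes. The difference was -2.12 points (SE 1.46, adjusted p = 0.734) for Epha2, -1.68 (SE 1.04, adjusted p = 0.681) for Ephb2 and -1.23 (SE 0.767, adjusted p = 0.684) for Epha6 by limma. For the other 7 genes it lay between -0.43 in Epha10 and 0.89 in Epha3, with -0.17 in Epha7, whose called tile is 1 of 11. Over the alternatives, Ephb2 ran from -3.22 to -0.26, Epha2 from -2.68 to 0.55 and Epha6 from -2.25 to -0.0060, and Epha3 ran from 0.19 to 1.88 over the samples left out. The embryos below the lowest Ctrl sample numbered 9 of 16 for Epha6, 8 for Ephb2, 7 for Epha2 and 3 for Epha7.

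The ligands and partners of the receptors were read in the same way. The other Eph receptors with tiles, Ephb3, Ephb4 and Ephb6, had 0 DMRs in 28 tiles, and Epha1 had no analysed tile. Among ephrins, 1 of 72 tiles was called. It lay outside the gene bodies, in the 1 kb past the end of Efna4, which encodes a ligand of EphA receptors. The level there went from 59.7% ± 7.18 (SD, n = 6) to 46.9% ± 9.63 (SD, n = 13), with a weighted difference of -15.1 points and an exact permutation p of 0.0111. Efnb1 is not on an autosome and was not analysed here. Among 19 genes of Eph signalling effectors, 4 of 266 tiles were called, all lower, in Vav2, Tiam1, Itsn1 and Tiam2. At Tiam1 the mean went from 31.8% ± 6.58 (SD, n = 6) to 15.3% ± 10.1 (SD, n = 16), with an exact permutation p of 0.00178. At Vav2 it went from 47.1% ± 6.92 (SD, n = 5) to 39.1% ± 18.1 (SD, n = 14), with an exact permutation p of 0.353. The Itsn1 tile went from 84.9% ± 4.38 (SD, n = 6) to 74.1% ± 9.58 (SD, n = 14) and the Tiam2 tile from 76.0% ± 6.47 (SD, n = 5) to 65.2% ± 8.29 (SD, n = 10), with exact permutation p of 0.0158 and 0.0280. These shares of 0, 1.39% and 1.5% of tiles stand beside 1.14% over all tiles. These 5 tiles are named because they were called, so their permutation p are descriptions.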

How the data were processed

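rRRBS libraries of 6 Ctrl and 16 EtOH-exposed forebrains were analysed. The authors trimmed reads with Trim Galore 0.3.3, aligned them to mm10 with BSMAP 2.90 and deposited, for each CpG and strand, the counts of covering reads and the percent methylated. Methylated reads were counts multiplied by percent, rounded. A CpG was used with 10 reads or more on a strand, and the 100 bp tiles on chromosomes 1 to 19 needed 2 CpGs per sample and 5 samples per condition. All tiles were tested with a logistic likelihood-ratio test and Benjamini-Hochberg adjustment. This test estimates no spread between embryos. limma 3.58.1 was fitted to log2 ratios (0.5 reads added) for tiles, and to mean deviations for genes with at least 3 tiles. Single values used exact two-sided permutation tests, and Wilson intervals cover counting error only, since PCR copies and calls of 1 read were treated as independent. Litters could not be modelled, so embryos were treated as independent. The embryos of each condition were of both sexes, and sex is not in the sample labels and was not modelled. Features were given by the centre of a tile, with promoters and exons from all curated RefSeq transcripts of a gene on GRCm38. The longest of these transcripts was used to place introns and to number exons and introns. Sequences came from that genome and from the RefSeq promoter table. The tests were checked on simulated data. The simulated tiles had counting error only, so this check did not cover spread between embryos.

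The named tiles were, for each gene, its strongest DMR by size or, lacking one, the tile of lowest p, and those next to the limit of 10 points. Members, lists and the libraries set aside were chosen with earlier results of these data known. Alternatives were the overdispersion F test, limma, unweighted means, 5 or 20 reads, added strands, 3 CpGs, no CCGG CpGs, 3 or all 22 samples, 20 points, other sets of libraries, a coverage covariate, a block for the replicate number, and each sample left out. The gene-level fit of samples 1 to 6 without the block, permutation tests of all tiles, and permutation tests and SDs without EtOH-exposed samples 4, 5 and 6, were added after seeing the data. Python 3.11.15 and R 4.3.3 were used.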

Additional observations from a re-analysis of the deposited data

How the results depend on the processing

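The number of Eph receptor DMRs, 2, was 5 with 5 reads per CpG (1.63% of all tiles called), 9 with 3 samples per condition (of 239 tiles, 2.57% of all tiles called) and 4 in samples 1 to 6 of both conditions with a replicate block (2 without it), in Epha2 and Ephb2 both times, where 4.76% and 3.07% of all tiles were called. It was 3 with at least 3 CpGs or added strands (0.654% and 1.16% of all tiles), with Ephb2 as the third gene, and 1 with unweighted means (1.71%). It was 0 with 20 reads (0.726%), all 22 samples (0.585%), 20 points (0.0883%), the overdispersion F test and limma (0% each), the coverage covariate (0.255%), without EtOH-exposed samples 4, 5 and 6 (0.39%), and with only EtOH-exposed samples 7, 8, 10, 11, 13, 15 and 16 (0.924%). With 20 reads, with all 22 samples and in samples 1 to 6, neither the Epha7 nor the Epha2 tile was among those analysed, so they could not be called, and the Epha2 DMRs in samples 1 to 6 are other tiles. Not all DMRs were lower: with added strands 2 were lower and 1 was higher. With 5 reads 4 were lower and 1 higher, and with 3 samples per condition 8 were lower and 1 higher. In the other settings with DMRs, all were lower. Leaving out each sample in turn, on the same tiles, gave 2 to 3 DMRs, with the third in Ephb2 without Ctrl sample 2. The replicate numbers did not pair the samples: the correlation of same-numbered deviations was -0.106 to 0.241 over 6 pairs, and 0 of 6 Ctrl samples correlated best with its own number.

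The Epha7 difference was -16.8 points but not called with the overdispersion F test (q = 0.866) and limma (adjusted p = 0.994), -4.36 with unweighted means, -2.09 without EtOH-exposed samples 4, 5 and 6, and -3.31 with samples 7, 8, 10, 11, 13, 15 and 16. It reversed to 1.81 with the coverage covariate, where Epha2 had 1.33, Epha4 -0.034 and Epha10 -0.063. Leaving out each sample gave -19.9 to -10.8. The covariate was lowest in samples 4, 5 and 6 but within the Ctrl range in sample 16, which was also low at this tile, and the cause of the change was not tested. The Ephb2 tile passed 10 points with at least 3 CpGs (-10.97) and in samples 1 to 6 (-12.9, and -14.4 with the block). The Epha6 tile reversed to 0.11 with the 7 selected samples and ran from -0.79 to 0.019 over the samples left out. The value of Epha7 minus the rest (-0.947) ran from -2.09 to 3.62 over the alternatives and from -4.11 to 1.82 over the samples left out, so its sign was not settled.

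At gene level, 0 members were called under any of the 11 alternatives. Small differences reversed for Epha7 to 0.055 (20 reads), 0.038 (without samples 4, 5 and 6), 0.28 (7 selected samples) and 0.45 (samples 1 to 6, with and without the block), for Epha2 to 0.079 (all 22) and 0.55 (7 selected), for Epha4 to 0.17 (all 22), 0.045 (no CCGG) and 0.50 (7 selected), for Epha5 to -0.080 (all 22) and -0.12 (without 4, 5 and 6), for Epha8 to 0.43 (no CCGG), 0.84 (7 selected) and 0.25 (samples 1 to 6, with and without the block), and for Ephb1 to 0.50 (7 selected). Over the samples left out, Epha7 ran from -0.46 to 0.14 and Epha8 from -0.55 to 0.19. The called tiles had 30 to 646 (Epha7) and 20 to 274 (Epha2) calls per sample, which limits single embryos.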
